A study of Homo sapiens with 9 samples.

Results

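The 58 genes described here encode core proteins of the spliceosome, the machine that removes introns from pre-mRNA. They were chosen by gene symbol from the small nuclear ribonucleoprotein (snRNP), SF3, PRPF, LSM and catalytic complex families, and the rule that picks them uses no measured value, although the list was drawn up when earlier results of these data were known. All 58 were found among the 30017 genes of the count table, and all 58 were among the 12712 genes with enough counts to be tested. The cells were MOLM13, a human acute myeloid leukemia line, transduced with pLKO-GFP lentivirus that carried a control hairpin (sh-Control) or 1 of 2 short hairpin RNAs against DDX41 (shDDX41 #1 and shDDX41 #2). Cells were sorted on day 4 after transduction, and each group had 3 RNA-sequencing libraries, lettered A, B and D. Every group, the controls included, was grown in the same medium and carried a lentiviral hairpin, and all 3 groups came from 1 cell line. The labels do not say whether the lettered libraries came from separate cultures, so p-values measure the spread between these libraries, which may be technical.

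The spliceosome is built anew on each intron. The U1 snRNP binds the 5′ splice site, SF1 and the U2AF proteins mark the branch point and the 3′ splice site, and the U2 snRNP then takes over the branch point. The U4/U6 and U5 snRNPs join as a preassembled tri-snRNP, and the complex around PRPF19 helps to form the catalytic center, which is the stage at which DDX41, a DEAD-box RNA helicase, associates with the spliceosome. Mutations of SF3B1, U2AF1 and DDX41 recur in myeloid neoplasms.

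DDX41 itself was lowered in every library that carried a hairpin against it. Its level in libraries A, B and D was 117, 115 and 113 CPM with sh-Control, 12.2, 12.9 and 9.95 CPM with shDDX41 #1 and 38.9, 39.9 and 42.5 CPM with shDDX41 #2. On the log2 scale this was −3.29 (SE 0.0881, adjusted p = 4.1e-12) against sh-Control with shDDX41 #1, a loss of 89.8%, and −1.51 (SE 0.0771, adjusted p = 7.05e-09) with shDDX41 #2, a loss of 64.8%. No library overlapped another group. Here and below, CPM is the count of a gene divided by the TMM-scaled size of its library, and adjusted p-values come from the quasi-likelihood test of edgeR over all 12712 genes, with calls at an adjusted p under 0.05.

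The 9 libraries held 16385238 to 20510032 counts, and the spliceosome members took 168402 to 217479 of them, which was 0.985% to 1.09% of a library. All 8 myeloid markers examined passed the count filter, and their summed level was 1949 to 1999 CPM with sh-Control, 2010 to 2062 CPM with shDDX41 #1 and 2876 to 2906 CPM with shDDX41 #2, where the lysozyme gene LYZ was at 1833, 1827 and 1794 CPM against 877, 931 and 987 CPM in the controls. Of 8 markers of other cell types, 6 failed the filter and together stayed under 0.917 CPM, while KRT8 reached 4.00 CPM and PECAM1 was between 102 and 189.7 CPM. Single markers moved in different directions. With shDDX41 #1, CSF1R fell (−0.86, adjusted p = 3.79e-05) while CD68 (0.42), CD33 (0.25) and FLT3 (0.20) rose, and with shDDX41 #2, LYZ (0.96), MPO (0.59) and ITGAM (0.52) rose. The part of these myeloid marker differences in the results for the members was not tested. In bulk RNA, fewer cells of a type and less RNA per cell cannot be told apart. One library stood apart from its group: over all genes, the chi-square per degree of freedom between shDDX41 #1 D and its partners was 17.0 and 18.5, against 2.86 between shDDX41 #1 A and B. Pairs of sh-Control libraries gave 7.83 to 9.87 and pairs of shDDX41 #2 libraries 2.43 to 3.20.

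Most core spliceosome mRNAs moved little. With shDDX41 #1, 10 of the 58 members rose and 9 fell, together 32.8% of them, while 47.8% of all genes tested were called, 23.7% higher and 24.1% lower. With shDDX41 #2, 5 rose and 5 fell, 17.2% of the members against 25% of all genes, of which 11.6% were higher and 13.4% lower. The sizes were small as well. The median size of the log2 fold change was 0.14 for the members and 0.29 for all genes with shDDX41 #1, and 0.11 and 0.18 with shDDX41 #2. A change of at least 1.2-fold was measured for 8 members (13.8%) with shDDX41 #1, where 53.3% of all genes reached it, and for 6 (10.3%) with shDDX41 #2, where 35% did. Only SYF2 reached 1.5-fold with shDDX41 #1, and only U2AF1, whose counts are unreliable as described below, with shDDX41 #2. Without library shDDX41 #1 D the log2 fold change of SYF2 was 0.5834, just under 1.5-fold. The signed median was −0.04 with either hairpin, beside 0.01 and −0.01 for all genes. The members are abundant transcripts, at a median level percentile of 87.4 among the genes tested without U2AF1, and low genes with noisy fold changes are part of the background.

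The split between rises and falls with shDDX41 #1 depended on the libraries and the scaling. Without shDDX41 #1 D, 10 members rose and 16 fell. In that fit 9 further members were called lower (SNRPE, SNRPG, SNRPB2, LSM3, LSM4, LSM5, LSM8, SNRNP25 and BUD31), SF3A2 was called higher, and SNRPA, EFTUD2 and SF3B5 lost their calls. With shDDX41 #2, LSM3 (0.15), SF3B5 (−0.18) and U2AF1 gained a call in it. In the A and B libraries alone 9 rose and 17 fell. With upper quartile in place of TMM scaling, 13 rose and 4 fell. Under it, the share of rises among the calls of all genes went from 49.5% to 61.1%. Shares of all genes called are not given for the fits on fewer libraries, here or below, so those counts describe the members alone. Both hairpins are compared with the same 3 sh-Control libraries, so the results with each are set side by side below and are not independent of one another.

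**Figure D1:**
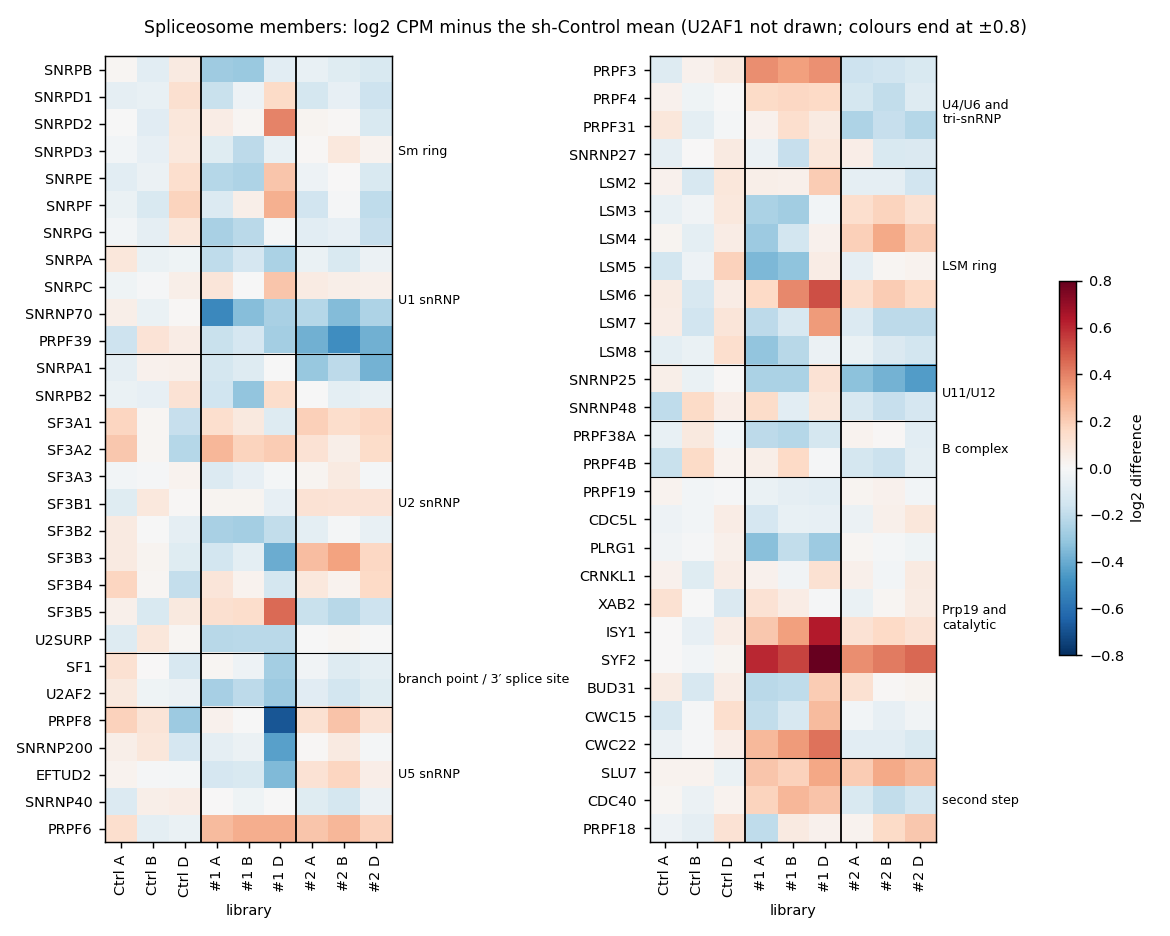
Log2 CPM of 57 members in each library minus the mean of the sh-Control libraries, by role (rows, members; columns, libraries A, B and D of sh-Control, written Ctrl, shDDX41 #1 and shDDX41 #2; colour, log2 difference, ending at 0.8 in either direction). U2AF1 is not drawn. SYF2 is red in all 6 hairpin libraries, SNRNP70 is blue in all 6, and shDDX41 #1 D differs from A and B for several members, PRPF8 among them.

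**Figure D2:**
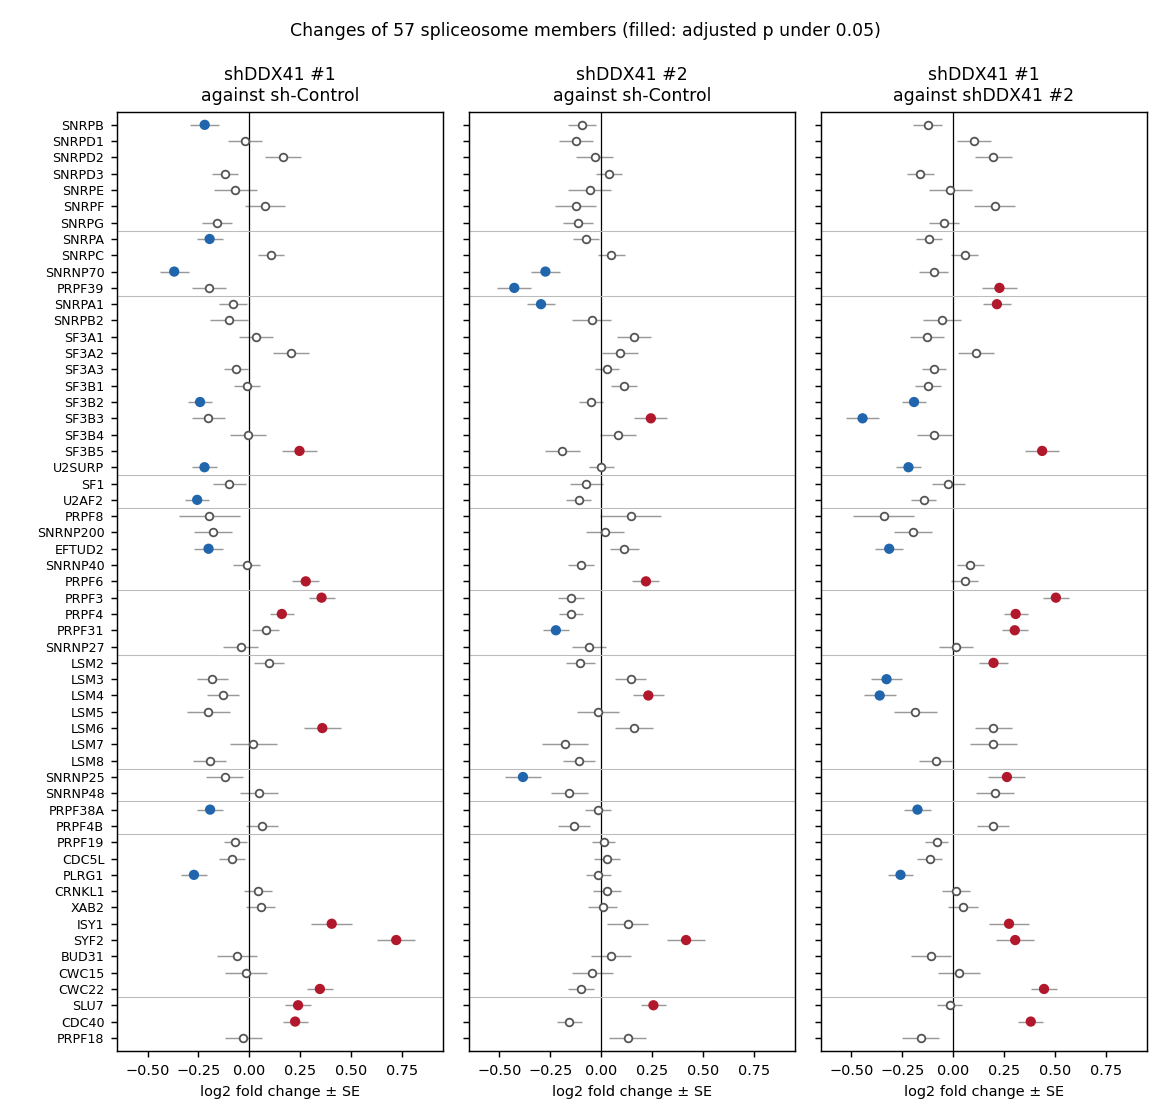
Log2 fold change with its SE (x axis) of 57 members (y axis) in the 3 comparisons, each over 3 against 3 libraries. Filled points passed an adjusted p of 0.05 (red, higher; blue, lower), open points did not. Nearly all points lie within 0.5 of 0, with SYF2 at 0.72 farthest out.

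Apart from U2AF1, described separately, the largest change with shDDX41 #1 was a rise of SYF2, a protein that joins the catalytic spliceosome with the PRPF19 complex. Its level in libraries A, B and D was 71.2, 69.96 and 72.2 CPM with sh-Control, 108, 103 and 140.1 CPM with shDDX41 #1 and 91.96, 94.8 and 98 CPM with shDDX41 #2. All 6 hairpin libraries lay above all 3 control libraries, and the shDDX41 #1 libraries lay above those of shDDX41 #2. It changed by 0.72 (SE 0.0939, adjusted p = 1.93e-05) on the log2 scale with shDDX41 #1, or 1.65-fold, and 0.42 (SE 0.0939, adjusted p = 0.00491) with shDDX41 #2, or 1.33-fold. The difference between the hairpins was 0.30 (SE 0.0928, adjusted p = 0.0135). It was 0.16 without shDDX41 #1 D, the highest library, and its adjusted p was 0.0554 without shDDX41 #2 A. The change of SYF2 with shDDX41 #1 against sh-Control was 0.58 without shDDX41 #1 D.

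Of the other 9 genes of the PRPF19 and catalytic group, 2 rose and 1 fell with shDDX41 #1, and none was called with shDDX41 #2. Of all genes, 23.7% rose and 24.1% fell with shDDX41 #1, and 25% were called with shDDX41 #2. CWC22, which binds the helicase EIF4A3 and so links splicing to the exon junction complex, measured 76.8, 79.02 and 82.5 CPM with sh-Control, 94.99, 101 and 107 CPM with shDDX41 #1 and 74.7, 74.7 and 72.8 CPM with shDDX41 #2. It was higher in each shDDX41 #1 library than in any other library, at 0.35 (SE 0.0652, adjusted p = 0.000508) against sh-Control, while shDDX41 #2 gave −0.10 (SE 0.0656, adjusted p = 0.288). ISY1, a protein of the catalytic steps and the member with the lowest level apart from U2AF1, measured 22.3, 21.3 and 23.1 CPM with sh-Control, 25.9, 27.96 and 34.5 CPM with shDDX41 #1 and 24.1, 24.8 and 24.1 CPM with shDDX41 #2. The shDDX41 #1 libraries were again the highest, with library D at the top, and the change was 0.40 (SE 0.1, adjusted p = 0.00387). Of the 75-base stretches of ISY1, 20.7% also occur in its readthrough transcript ISY1-RAB43, so the share of its own mRNA is uncertain.

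PLRG1, a partner of PRPF19 in the same complex, went the other way at 89.7, 91 and 94 CPM with sh-Control, 72.7, 79.8 and 74.99 CPM with shDDX41 #1 and 92.4, 90.4 and 89.2 CPM with shDDX41 #2. The shDDX41 #1 libraries were below all others, and the change was −0.27 (SE 0.0624, adjusted p = 0.00223) with shDDX41 #1 against −0.01 (SE 0.0618, adjusted p = 0.895) with shDDX41 #2. The 2 proteins at the center of the complex were not called. PRPF19, its ubiquitin ligase, measured 296, 286 and 288 CPM with sh-Control, 279, 276 and 273 CPM with shDDX41 #1 and 294, 297 and 285 CPM with shDDX41 #2, a difference of −0.07 (SE 0.0557, adjusted p = 0.324) with shDDX41 #1 and 0.01 (SE 0.0556, adjusted p = 0.896) with shDDX41 #2. CDC5L, its MYB-related scaffold, measured 158, 161 and 169.7 CPM with sh-Control, 148, 157 and 156 CPM with shDDX41 #1 and 158, 168 and 173 CPM with shDDX41 #2, a difference of −0.09 (SE 0.0625, adjusted p = 0.271) with shDDX41 #1 and 0.03 (SE 0.0624, adjusted p = 0.778) with shDDX41 #2. For both genes the shDDX41 #1 libraries lay just below the controls and the shDDX41 #2 libraries overlapped them. CRNKL1, XAB2, BUD31 and CWC15 were not called in any comparison over all 9 libraries, with log2 fold changes from −0.06 (BUD31) to 0.06 (XAB2) for shDDX41 #1. BUD31 was called lower without shDDX41 #1 D (−0.20, adjusted p = 0.0281).

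The second step of splicing, in which the exons are joined, is represented by 3 genes, of which 2 rose with shDDX41 #1 and 1 with shDDX41 #2. Of all genes, 23.7% rose with shDDX41 #1 and 11.6% with shDDX41 #2. SLU7, needed for the choice of the 3′ splice site, was higher with both hairpins at 116, 116 and 109.7 CPM with sh-Control, 133, 129.6 and 141 CPM with shDDX41 #1 and 131, 141 and 136 CPM with shDDX41 #2. All hairpin libraries lay above the controls, with changes of 0.24 (SE 0.0625, adjusted p = 0.00545) and 0.26 (SE 0.0624, adjusted p = 0.00783). CDC40, a factor of the transition between the catalytic steps, measured 70.7, 67.8 and 71.4 CPM with sh-Control, 79.1, 84.2 and 81.96 CPM with shDDX41 #1 and 64.2, 60.9 and 63.2 CPM with shDDX41 #2. It was highest with shDDX41 #1, at 0.22 (SE 0.0617, adjusted p = 0.00741), and lowest with shDDX41 #2, where the difference of −0.16 (SE 0.062, adjusted p = 0.0782) did not pass. PRPF18 was not called, at −0.03 and 0.13. SYF2, CWC22, ISY1, PLRG1, SLU7 and CDC40 kept their shDDX41 #1 calls when any 1 of the 9 libraries was left out, and so did SYF2 and SLU7 their shDDX41 #2 calls.

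**Figure D3:**
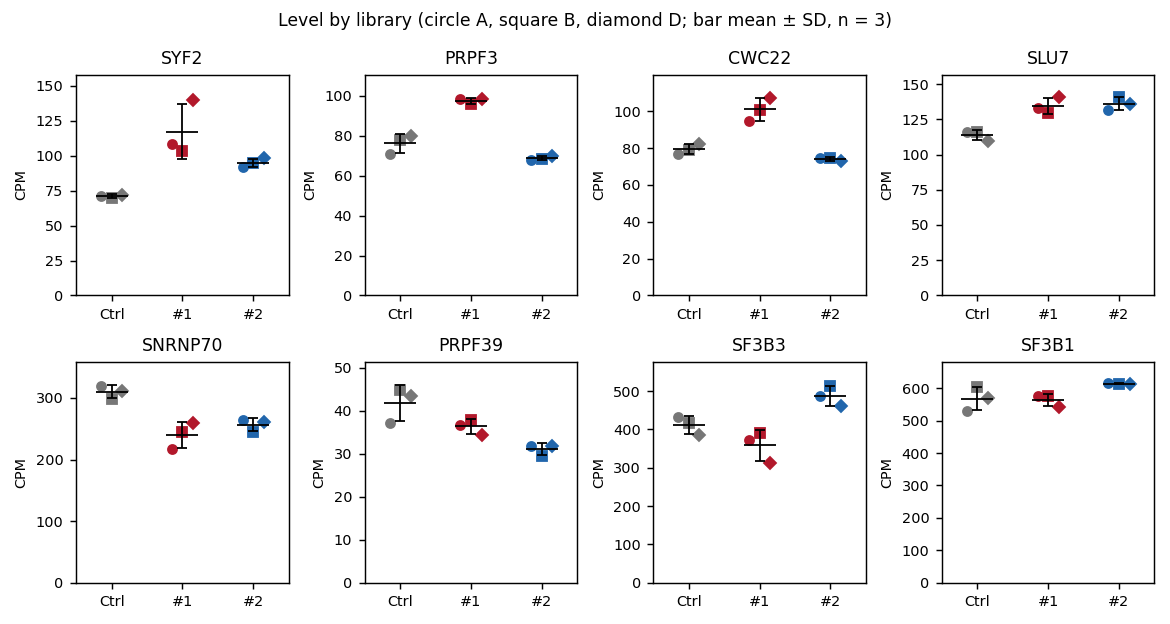
Level in CPM (y axis, from 0) of 8 members in each library of sh-Control (Ctrl), shDDX41 #1 (#1) and shDDX41 #2 (#2), with the mean and SD of 3 libraries as a black bar. SYF2 and SLU7 lie above the controls with both hairpins, PRPF3 and CWC22 only with shDDX41 #1, SNRNP70 lies below with both, PRPF39 is lowest with shDDX41 #2, SF3B3 is highest with shDDX41 #2, and SF3B1 overlaps between sh-Control and shDDX41 #1.

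Among the U4/U6 and tri-snRNP proteins, PRPF3 and PRPF4 rose with shDDX41 #1 and PRPF31 fell with shDDX41 #2. The differences of these genes from sh-Control had opposite signs with the hairpins, but none of them was called with both. PRPF3, which holds the U4/U6 duplex, measured 71, 77.98 and 79.99 CPM with sh-Control, 98.5, 95.8 and 98.4 CPM with shDDX41 #1 and 67.97, 68.4 and 70 CPM with shDDX41 #2. The shDDX41 #1 libraries were above, and the shDDX41 #2 libraries below, all 3 controls. Its change was 0.35 (SE 0.064, adjusted p = 0.000357) with shDDX41 #1, and −0.15 (SE 0.0645, adjusted p = 0.102) with shDDX41 #2. PRPF4, its binding partner, measured 111, 106 and 109 CPM with sh-Control, 121, 122 and 122 CPM with shDDX41 #1 and 98.6, 94.6 and 101 CPM with shDDX41 #2, for a change of 0.16 (SE 0.0593, adjusted p = 0.0373) with shDDX41 #1 and −0.15 (SE 0.0595, adjusted p = 0.0829) with shDDX41 #2. The order of the groups was that of PRPF3, with a smaller step.

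PRPF31, which binds U4 and tethers U5 to U4/U6, measured 114, 101 and 106 CPM with sh-Control, 109.6, 117 and 112 CPM with shDDX41 #1 and 89.9, 93.9 and 91.2 CPM with shDDX41 #2. Its shDDX41 #2 libraries were the lowest, with a change of −0.22 (SE 0.0648, adjusted p = 0.0205) against 0.08 (SE 0.0646, adjusted p = 0.325) for shDDX41 #1. SNRNP27 was not called, at −0.04 and −0.06. Between the hairpins, 3 of these 4 genes were higher with shDDX41 #1: PRPF3 by 0.50 (SE 0.0642, adjusted p = 1.44e-05), PRPF4 by 0.31 (SE 0.0595, adjusted p = 0.000602) and PRPF31 by 0.30 (SE 0.0649, adjusted p = 0.00131). Of all genes, 24.6% were higher. The calls of PRPF3, PRPF4 and PRPF31 held in each of the 9 fits with 1 library left out. Against sh-Control, PRPF3 also held in all 9, while PRPF4 passed in 2 of 9 (highest adjusted p = 0.115) and lost its call without sh-Control B or D, shDDX41 #1 A or B, or any shDDX41 #2 library. The PRPF31 call with shDDX41 #2 was lost without sh-Control A or any 1 shDDX41 #2 library (highest adjusted p = 0.0828), and 17.7% of its 75-base stretches occur in other genes, TFPT among them.

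Of the 5 U5 genes, PRPF6 rose with both hairpins and EFTUD2 fell with shDDX41 #1. Of all genes, 47.8% were called with shDDX41 #1 and 25% with shDDX41 #2. PRPF6, the bridge between U5 and U4/U6, measured 168, 145 and 148 CPM with sh-Control, 183, 187 and 188 CPM with shDDX41 #1 and 178, 184 and 174 CPM with shDDX41 #2. All 6 hairpin libraries were above the controls, by 0.28 (SE 0.0664, adjusted p = 0.00307) under shDDX41 #1 and 0.22 (SE 0.0664, adjusted p = 0.0249) under shDDX41 #2, although the latter call was lost without sh-Control B or D or any 1 shDDX41 #2 library (highest adjusted p = 0.107). EFTUD2, the U5 GTPase, measured 264, 257 and 256 CPM with sh-Control, 236, 238 and 202 CPM with shDDX41 #1 and 281, 292 and 268 CPM with shDDX41 #2. It was below the controls in each shDDX41 #1 library, at −0.20 (SE 0.0696, adjusted p = 0.027), and the shDDX41 #2 difference was 0.11 (SE 0.0693, adjusted p = 0.253). The EFTUD2 call with shDDX41 #1 was lost without sh-Control A, sh-Control B or shDDX41 #1 D (highest adjusted p = 0.0967), and in the A and B libraries alone it missed narrowly (−0.14, adjusted p = 0.0526).

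PRPF8, the scaffold of the catalytic center and the member with the most counts, was dominated by the D libraries. It measured 825, 779 and 592 CPM with sh-Control, 741, 725 and 451 CPM with shDDX41 #1 and 789.7, 850.4 and 786 CPM with shDDX41 #2. Library D was the lowest in each group, by the widest margin with shDDX41 #1, and the groups overlapped. The differences were −0.20 (SE 0.151, adjusted p = 0.299) with shDDX41 #1 and 0.14 (SE 0.151, adjusted p = 0.521) with shDDX41 #2. Without shDDX41 #1 D the first was 0.01, with the sign turned. SNRNP200, the helicase that unwinds U4/U6, also had its lowest value in library D of each group, at 493, 508 and 435 CPM with sh-Control, 454, 462 and 353 CPM with shDDX41 #1 and 480.1, 503 and 473 CPM with shDDX41 #2, with differences of −0.18 (SE 0.0922, adjusted p = 0.124) under shDDX41 #1 and 0.02 (SE 0.0921, adjusted p = 0.901) under shDDX41 #2. Without shDDX41 #1 D the SNRNP200 difference with shDDX41 #1 was −0.05. SNRNP40 was not called, at −0.01 and −0.10.

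In the U1 snRNP, SNRNP70 fell with both hairpins. This protein holds U1 RNA and contacts the 5′ splice site machinery. It measured 319.7, 298 and 312 CPM with sh-Control, 217, 245 and 259 CPM with shDDX41 #1 and 264, 244 and 261 CPM with shDDX41 #2. All 6 hairpin libraries were below the controls, at −0.37 (SE 0.0709, adjusted p = 0.000598) with shDDX41 #1 and −0.27 (SE 0.0708, adjusted p = 0.0109) with shDDX41 #2, the latter with an adjusted p of 0.0648 without shDDX41 #2 B. PRPF39, a U1-associated factor, measured 37.1, 44.8 and 43.3 CPM with sh-Control, 36.7, 37.9 and 34.5 CPM with shDDX41 #1 and 31.9, 29.5 and 31.9 CPM with shDDX41 #2. It was lowest with shDDX41 #2, where it fell by 0.43 on the log2 scale (SE 0.0835, adjusted p = 0.00186), the largest fall of any member with that hairpin apart from U2AF1. With shDDX41 #1 the difference was −0.20 (SE 0.0831, adjusted p = 0.0597).

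SNRPA, an RNA-binding protein of U1, fell with shDDX41 #1 (−0.20, SE 0.0643, adjusted p = 0.0208), and the call was lost without sh-Control A, shDDX41 #1 A or shDDX41 #1 D (highest adjusted p = 0.077). SNRPC, a zinc finger protein of U1, was not called, at 0.11 and 0.05. In the minor U11/U12 snRNP, which acts on a rare class of introns, SNRNP25 fell with shDDX41 #2 and SNRNP48 was not called, at 0.05 and −0.16. SNRNP25 measured 75.8, 70.5 and 73.8 CPM with sh-Control, 61.5, 61.4 and 79.6 CPM with shDDX41 #1 and 58.4, 56.4 and 53.8 CPM with shDDX41 #2. The shDDX41 #2 libraries were the lowest, at −0.38 (SE 0.0905, adjusted p = 0.00633), while shDDX41 #1 A and B were low and D was high, at −0.12 (SE 0.0901, adjusted p = 0.287) in all. Without shDDX41 #1 D the latter was called, at −0.25 (adjusted p = 0.0053), and so it was in the A and B libraries alone (−0.25, adjusted p = 0.00696). The shDDX41 #2 calls of PRPF39 and SNRNP25 held in every fit with 1 library left out.

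The U2 snRNP is the site of SF3B1, the branch point subunit most often mutated in myeloid neoplasms. SF3B1 itself was not called in any comparison. It measured 530.1, 602 and 571 CPM with sh-Control, 575, 575 and 541 CPM with shDDX41 #1 and 615, 613 and 613 CPM with shDDX41 #2. The sh-Control and shDDX41 #1 libraries overlapped, and shDDX41 #2 lay just above both. The differences were −0.01 (SE 0.0635, adjusted p = 0.9) with shDDX41 #1, 0.11 (SE 0.0634, adjusted p = 0.218) with shDDX41 #2 and −0.12 (SE 0.0635, adjusted p = 0.123) between the hairpins.

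Its partners moved in different directions. SF3B2, which contacts RNA near the branch point, measured 386, 366 and 349.7 CPM with sh-Control, 307, 304 and 320.1 CPM with shDDX41 #1 and 348, 364 and 352 CPM with shDDX41 #2, and fell with shDDX41 #1 in each library, at −0.24 (SE 0.0603, adjusted p = 0.00394). U2SURP, an SR-related protein associated with U2, measured 276, 317 and 299.7 CPM with sh-Control, 254, 256 and 256 CPM with shDDX41 #1 and 296, 299.9 and 296 CPM with shDDX41 #2, and fell in the same way, at −0.22 (SE 0.0618, adjusted p = 0.00851), with shDDX41 #2 inside the control range. Both calls held with any 1 library left out.

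SF3B3, the large scaffold of the SF3b complex, measured 432, 418 and 385 CPM with sh-Control, 371, 390.1 and 313 CPM with shDDX41 #1 and 488, 513 and 461 CPM with shDDX41 #2. The shDDX41 #2 libraries were the highest, and those of shDDX41 #1 overlapped the lower end of the controls. The change was 0.24 (SE 0.0812, adjusted p = 0.0392) with shDDX41 #2 and −0.20 (SE 0.0814, adjusted p = 0.0532) with shDDX41 #1, and the former was lost without sh-Control B or D or any 1 shDDX41 #2 library (highest adjusted p = 0.161). SF3B5, a small SF3b subunit encoded by a single exon, measured 173, 155 and 178 CPM with sh-Control, 184, 186 and 231 CPM with shDDX41 #1 and 149, 144 and 149.9 CPM with shDDX41 #2, highest with shDDX41 #1 and lowest with shDDX41 #2. It rose with shDDX41 #1, at 0.25 (SE 0.0848, adjusted p = 0.0261), and its adjusted p was 0.11 at most, when sh-Control B or shDDX41 #1 D was left out. SNRPA1, a protein that binds U2 RNA together with SNRPB2, was lowest with shDDX41 #2 at 90.9, 97.8 and 98.3 CPM with sh-Control, 86.7, 89.02 and 95.6 CPM with shDDX41 #1 and 77.4, 82.8 and 73.4 CPM with shDDX41 #2, and fell there, at −0.30 (SE 0.069, adjusted p = 0.006), in each fit with 1 library left out. Of its 75-base stretches 20.6% occur in other annotated genes. SNRPB2, SF3A1, SF3A2, SF3A3 and SF3B4 were not called in any comparison over all 9 libraries, with log2 fold changes between −0.10 (SNRPB2) and 0.21 (SF3A2) for shDDX41 #1. Without shDDX41 #1 D, SNRPB2 (−0.23, adjusted p = 0.00958) and SF3A2 (0.22, adjusted p = 0.0462) were called with shDDX41 #1, and the SF3B3 difference with shDDX41 #1 was −0.10, while in the A and B libraries alone it was −0.16 (adjusted p = 0.0304).

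Of the factors that mark the 3′ end of the intron, U2AF2, which binds the polypyrimidine tract, measured 503, 467 and 463 CPM with sh-Control, 396, 413 and 391 CPM with shDDX41 #1 and 449, 431 and 447 CPM with shDDX41 #2. The shDDX41 #1 libraries were below all others, at −0.26 (SE 0.0603, adjusted p = 0.00268), in each fit with 1 library left out, and shDDX41 #2 gave −0.11 (SE 0.0602, adjusted p = 0.196). SF1, which binds the branch point first, was not called, at −0.10 and −0.07. Of the B complex pair, PRPF38A fell with shDDX41 #1 (−0.19, SE 0.0647, adjusted p = 0.0229), and the call was lost without sh-Control B, shDDX41 #1 A or shDDX41 #1 B (highest adjusted p = 0.102). The kinase PRPF4B was not called, at 0.06 and −0.13.

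The Sm ring, the set of 7 proteins shared by U1, U2, U4 and U5, had 1 call over the 3 comparisons, a fall of SNRPB with shDDX41 #1. Of all genes, 47.8% were called with shDDX41 #1, 25% with shDDX41 #2 and 48.8% between the hairpins. The count for the ring depended on shDDX41 #1 D. Without that library SNRPE (−0.23, adjusted p = 0.0107) and SNRPG (−0.23, adjusted p = 0.00713) were also called lower with shDDX41 #1, and SNRPB, SNRPD3 and SNRPE were called lower with shDDX41 #1 than with shDDX41 #2 (−0.20, −0.19 and −0.18). In the A and B libraries alone SNRPB, SNRPE and SNRPG were called lower with shDDX41 #1 (adjusted p = 0.00147, 0.0286 and 0.0138). SNRPB, which encodes the SmB proteins, measured 525, 489 and 545 CPM with sh-Control, 426, 422 and 490.3 CPM with shDDX41 #1 and 499, 484 and 477 CPM with shDDX41 #2. Libraries A and B of shDDX41 #1 were low, D lay at the lower end of the controls, and the change of −0.22 (SE 0.0705, adjusted p = 0.0183) lost its call without sh-Control D, shDDX41 #1 A or shDDX41 #1 B (highest adjusted p = 0.08). SNRPD3, the SmD3 protein, measured 223, 217 and 239.8 CPM with sh-Control, 211, 196 and 218 CPM with shDDX41 #1 and 228, 239.6 and 231 CPM with shDDX41 #2, with differences of −0.12 (SE 0.0643, adjusted p = 0.132) under shDDX41 #1 and 0.04 (SE 0.0641, adjusted p = 0.697) under shDDX41 #2. SNRPD1, SNRPD2, SNRPE, SNRPF and SNRPG lay between −0.16 (SNRPG) and 0.17 (SNRPD2) with shDDX41 #1 and between −0.13 (SNRPF) and −0.03 (SNRPD2) with shDDX41 #2.

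The LSM ring binds the end of U6 RNA, and a related ring acts in cytoplasmic mRNA decay. Here LSM6 rose with shDDX41 #1 and LSM4 with shDDX41 #2. LSM6 measured 33.6, 29.4 and 33.5 CPM with sh-Control, 35.9, 41.9 and 45.99 CPM with shDDX41 #1 and 35.2, 36.9 and 35.8 CPM with shDDX41 #2. The hairpin libraries were above the controls, at 0.36 (SE 0.0913, adjusted p = 0.00464) with shDDX41 #1 in each fit with 1 library left out and 0.16 (SE 0.0915, adjusted p = 0.218) with shDDX41 #2. LSM4 measured 176, 164 and 180.4 CPM with sh-Control, 142, 157 and 177 CPM with shDDX41 #1 and 198, 214 and 199.5 CPM with shDDX41 #2. It rose with shDDX41 #2, at 0.23 (SE 0.0776, adjusted p = 0.0406), a call lost without any 1 of the sh-Control or shDDX41 #2 libraries (highest adjusted p = 0.164). LSM7 measured 114, 98.2 and 117 CPM with sh-Control, 94.4, 100.03 and 139 CPM with shDDX41 #1 and 101, 94.5 and 94.5 CPM with shDDX41 #2. Library D was the highest with shDDX41 #1, and the difference of 0.02 (SE 0.115, adjusted p = 0.902) turned to −0.16 without it. The shDDX41 #2 difference was −0.18 (SE 0.115, adjusted p = 0.281). LSM2, LSM3, LSM5 and LSM8 were not called against sh-Control, at −0.20 (LSM5) to 0.10 (LSM2) with shDDX41 #1. Without shDDX41 #1 D, LSM3 (−0.26, adjusted p = 0.00303), LSM4 (−0.21, adjusted p = 0.0148), LSM5 (−0.34, adjusted p = 0.00224) and LSM8 (−0.26, adjusted p = 0.0062) were called lower with shDDX41 #1, and all 4 were also called in the A and B libraries alone.

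The direct comparison of the hairpins sets the larger DDX41 loss beside the smaller one. Each degree of loss came from a single hairpin, so the degree of loss and the hairpin sequence cannot be told apart. Relative to shDDX41 #2, 13 members were higher and 8 lower with shDDX41 #1, or 36.2% of them, against 48.8% of all genes (24.6% higher and 24.2% lower). The median size of the log2 difference was 0.18 for the members and 0.29 for all genes. The clearest rises were PRPF3, as above, CWC22 (0.45, SE 0.0654, adjusted p = 5.36e-05), CDC40 (0.38, SE 0.0619, adjusted p = 0.000135), SF3B5 (0.44, SE 0.0851, adjusted p = 0.000624) and the tri-snRNP pair PRPF4 and PRPF31. The clearest falls were SF3B3 (−0.44, SE 0.0814, adjusted p = 0.000376), LSM4 (−0.36, SE 0.0779, adjusted p = 0.00139), EFTUD2 (−0.31, SE 0.0696, adjusted p = 0.00167), LSM3 (−0.33, SE 0.0761, adjusted p = 0.0024), PLRG1 (−0.26, SE 0.0624, adjusted p = 0.00311) and U2SURP (−0.22, SE 0.0618, adjusted p = 0.00858). LSM3 measured 79.4, 81.5 and 88.1 CPM with sh-Control, 69.4, 68.3 and 81.8 CPM with shDDX41 #1 and 90.9, 94.02 and 90.4 CPM with shDDX41 #2, highest in the shDDX41 #2 libraries and lowest in shDDX41 #1 A and B. All of these held when any 1 library was left out.

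The other calls between the hairpins were less stable. PRPF39, SNRPA1, SNRNP25, LSM2, ISY1, SYF2 and U2AF1 were called higher with shDDX41 #1, and SF3B2 and PRPF38A lower, and each lost its call in at least 1 of the 9 fits. LSM2 (0.20, SE 0.0729, adjusted p = 0.035), ISY1 (0.27, SE 0.0997, adjusted p = 0.0332) and SNRNP25 (0.26, SE 0.0911, adjusted p = 0.0259) were among those lost without shDDX41 #1 D (adjusted p at most 0.128, 0.176 and 0.117 over the 9 fits). The PRPF39 call was lost without shDDX41 #1 A or B or any shDDX41 #2 library (adjusted p at most 0.139), that of SNRPA1 without shDDX41 #2 A or D (0.0967), that of SF3B2 without shDDX41 #2 B (0.0689) and that of PRPF38A without A or B of either hairpin (0.129). LSM2 and ISY1 were also lost without any 1 shDDX41 #2 library, and SNRNP25 without shDDX41 #2 B or D. Leaving out shDDX41 #2 A, B or D reduced the higher calls from 13 to 7, 8 and 7. Leaving out shDDX41 #1 D raised the lower calls from 8 to 14, with SNRPB, SNRPD3, SNRPE, SNRPB2, LSM5 and BUD31 added. In the same fit PRPF4B was called higher (0.24, adjusted p = 0.0146), and LSM2, SNRNP25 and ISY1 lost their calls.

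U2AF1, which reads the AG at the 3′ splice site and is recurrently mutated in myeloid neoplasms, had counts that did not follow the groups. Libraries A, B and D held 28, 241 and 17 counts with sh-Control, 223, 27 and 20 counts with shDDX41 #1, and 15, 15 and 13 counts with shDDX41 #2. Libraries sh-Control B and shDDX41 #1 A were far above the other 7, which held 13 to 28 counts, while every other member had at least 371 counts in every library. U2AF1 was the only row of the table with at least 15 counts in both of these libraries and over 2 times the highest count of the other 7, a pattern looked for after its counts were seen.

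U2AF1 (ENSG00000160201.11) lies at chr21:43092956-43107587 on the minus strand of GRCh38 and has a near-identical annotated copy, U2AF1L5. Of the 75-base stretches of its transcripts, the read length of the study, 90.8% also occur in transcripts of other genes. The 720-base coding sequence of U2AF1-201 and that of U2AF1L5-201 differ at 0 positions, so a read from the first 75 coding bases, shown here from the GENCODE 29 transcripts with the start codon in capitals, fits both genes equally.
U2AF1-201, coding bases 1 to 75: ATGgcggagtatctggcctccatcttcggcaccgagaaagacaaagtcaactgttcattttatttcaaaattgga
How reads that fit several places were counted is not given in the sources used here, and its part in these counts was not tested. The fitted differences were 0.02 (SE 0.809, adjusted p = 0.987) with shDDX41 #1, −2.77 (SE 1.07, adjusted p = 0.0714) with shDDX41 #2 and 2.79 (SE 1.08, adjusted p = 0.0433) between the hairpins, and the last was 0.85 (adjusted p = 0.555) without shDDX41 #1 A. The U2AF1 mRNA level is therefore uncertain, and without U2AF1 the calls were 19, 10 and 20 of 57 members in the 3 comparisons.

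The D libraries of sh-Control and shDDX41 #1 departed from A and B by transcript length. The Spearman correlation across the 58 members, between the log2 CPM of D minus the mean of A and B and the length of the merged exons, was −0.53 for shDDX41 #1, −0.35 for sh-Control and 0.05 for shDDX41 #2. Over 11483 tested genes with a length the values were −0.41, −0.28 and 0.06. Across the members, the log2 fold changes correlated with length at −0.18 with shDDX41 #1, 0.30 with shDDX41 #2 and −0.38 between the hairpins. Over the tested genes with a length these were −0.08, 0.09 and −0.13. Differences between the A and B libraries alone gave −0.01, 0.20 and −0.18 for the members. They gave −0.04, 0.01 and −0.04 for the tested genes. All these values are descriptions across genes that share the libraries. The 19 shortest members (612 to 1884 bases) were higher by a median of 0.21 in shDDX41 #1 D, while the 19 longest (3793 to 9720 bases) differed by 0.01. LSM7 and SYF2 are among the short members, and PRPF8, SNRNP200 and SF3B3 among the long ones. The rises of SYF2 (0.58), PRPF3 (0.38) and CWC22 (0.33) and the fall of SNRNP70 (−0.42) with shDDX41 #1 were called in the A and B libraries alone.

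**Figure D4:**
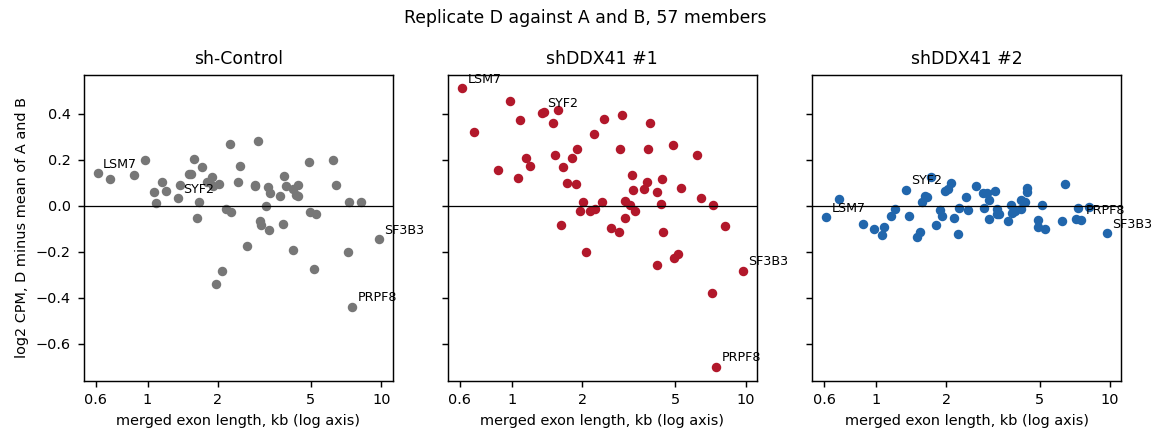
Log2 CPM of replicate D minus the mean of replicates A and B (y axis) against merged exon length in kb (x axis, log scale) for 57 members in each group. In shDDX41 #1 short members such as LSM7 lie above 0 and the long PRPF8 and SF3B3 below it, and shDDX41 #2 shows no such slope.

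Levels of different members can be compared only per length, here as CPM per kb of merged GENCODE exons. This is an approximation, because the authors' annotation is not given and the merged exons of all transcripts can be longer than the mRNA present. SNRPD1, for instance, was given 4909 bases and LSM8 6210 bases, which lowers their values. On that scale SNRPB was the most abundant member in the controls at 450.3 ± 24.7 (SD, n = 3), followed by SF3B5 at 243 ± 17.4, SNRPD2 at 201 ± 12.6, SNRNP70 at 187 ± 6.49 and LSM7 at 179 ± 16.1. SNRPB and SF3B5 stood clear of the members below them, while SNRPD2, SNRNP70 and LSM7 lay within their combined spread. SF3B1, at 69.6 ± 4.44, and SNRNP200, at 66.8 ± 5.34, lay within their combined spread. Apart from U2AF1, the lowest were LSM6 at 11.1 ± 0.823, SNRNP48 of the minor spliceosome at 9.92 ± 1.23 and ISY1 at 5.68 ± 0.236. The counts of U2AF1 gave 2.89 ± 3.87, but its level is uncertain as described above.

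A sequence feature that the choice of genes did not use was more frequent in the promoters of the members than in those of all genes tested. RefSeq sequence of the 250 bases upstream of the start (GRCh38.p14) was found for 52 of the 58 members, and 6 short motifs were searched on both strands. The ETS motif CCGGAAG (reverse CTTCCGG) was present in 26 of 52 members (50%), in 16.8% of 9005 genes tested and in 8.82% of all 27305 promoters. The CCAAT motif, read on both strands, was present in 40.4% of the members, 35.6% of genes tested and 33% of all. The NRF1 motif GCATGCGC was present in 5.77%, 5.11% and 2.81%, the YY1 motif AAGATGGC in 1.92%, 1.98% and 1.37%, and the TATA motif TATAAA in 5.77%, 5.22% and 11.1%. The E2F motif TTTCCCGC was in 0 of 52 members, 2.28% of genes tested and 1.42% of all. None of these motifs contains another, and a match is only a match of letters. The genes tested were not matched to the members for level, and other spliceosome genes were not examined separately.

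Members with the ETS motif were found among those that rose, those that fell and those that were not called. Counting only the 52 members with an upstream sequence, it was present in 4 of 8 that rose with shDDX41 #1, 5 of 9 that fell and 17 of 35 that were not called. With shDDX41 #2 it was in 3 of 4 that rose, 1 of 4 that fell and 22 of 44 not called, and between the hairpins in 3 of 11 higher, 3 of 7 lower and 20 of 34 not called. The upstream sequences of 2 members that rose with both hairpins, SYF2 and SLU7, and of 2 that fell, U2AF2 with shDDX41 #1 and SNRPA1 with shDDX41 #2, are shown 5′ to 3′ with the ETS matches in capitals. They were picked after the changes were known. Counted from the RefSeq start, the matches begin 91 and 77 bases before it in SYF2 and 52 and 12 bases in SLU7. They begin 30 bases before it in U2AF2 and 113 bases in SNRPA1. In GENCODE, U2AF2 begins at chr19:55654146 and SLU7, on the minus strand, at chr5:160421711, so both stretches lie inside the gene. That of SNRPA1 overlaps its gene, which begins at chr15:101295282, and that of SYF2 lies outside. Whether the stretches of other members lie inside GENCODE genes was not tested.
SYF2, chr1:25232503-25232752, minus strand: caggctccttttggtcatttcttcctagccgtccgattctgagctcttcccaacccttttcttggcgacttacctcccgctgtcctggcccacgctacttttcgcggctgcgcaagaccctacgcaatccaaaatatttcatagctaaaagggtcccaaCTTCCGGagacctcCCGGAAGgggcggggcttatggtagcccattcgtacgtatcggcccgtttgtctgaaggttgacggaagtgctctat
SLU7, chr5:160419082-160419331, minus strand: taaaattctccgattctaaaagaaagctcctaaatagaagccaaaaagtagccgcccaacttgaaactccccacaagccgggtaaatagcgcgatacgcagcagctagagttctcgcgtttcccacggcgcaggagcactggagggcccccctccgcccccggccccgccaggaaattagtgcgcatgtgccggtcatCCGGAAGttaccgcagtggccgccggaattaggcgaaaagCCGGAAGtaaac
U2AF2, chr19:55654785-55655034, plus strand: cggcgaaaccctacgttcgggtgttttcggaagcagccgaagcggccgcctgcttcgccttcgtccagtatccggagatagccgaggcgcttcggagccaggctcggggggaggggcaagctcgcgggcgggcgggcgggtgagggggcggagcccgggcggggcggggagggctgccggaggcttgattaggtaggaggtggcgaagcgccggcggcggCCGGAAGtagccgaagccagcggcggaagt
SNRPA1, chr15:101295249-101295498, minus strand: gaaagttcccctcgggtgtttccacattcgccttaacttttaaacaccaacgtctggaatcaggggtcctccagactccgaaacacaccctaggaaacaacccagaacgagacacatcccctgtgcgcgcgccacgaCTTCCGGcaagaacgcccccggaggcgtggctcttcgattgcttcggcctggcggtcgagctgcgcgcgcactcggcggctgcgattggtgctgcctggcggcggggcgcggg

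Beyond the 58 members, 80 further spliceosome, exon junction and snRNP assembly genes were tested. Of these, 20 rose and 14 fell with shDDX41 #1 (42.5%, against 47.8% of all genes). With shDDX41 #2, 3 rose and 17 fell, in all 25%, the same share as of all genes, of which 11.6% rose and 13.4% fell. Between the hairpins 35 were higher and 10 lower (56.2%, against 48.8% of all genes). STRAP and MAGOH moved more with shDDX41 #1 than any member. STRAP, which works with the SMN complex in snRNP assembly, measured 193, 193 and 202 CPM with sh-Control, 82.8, 84.5 and 95.9 CPM with shDDX41 #1 and 194, 193 and 188 CPM with shDDX41 #2, a fall with shDDX41 #1 of −1.16 (SE 0.0674, adjusted p = 8.02e-09). MAGOH, a core protein of the exon junction complex, measured 47.02, 47.7 and 58.6 CPM with sh-Control, 27.3, 26.3 and 32.8 CPM with shDDX41 #1 and 47.9, 50.5 and 47.9 CPM with shDDX41 #2, with −0.83 (SE 0.0992, adjusted p = 8.64e-06) for shDDX41 #1. The shDDX41 #2 libraries overlapped the controls for both genes.

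The SMN complex protein GEMIN7 (0.47, SE 0.0813, adjusted p = 0.000268) and the tri-snRNP helicase DDX23 (0.40, SE 0.0612, adjusted p = 8.76e-05) rose with shDDX41 #1. With shDDX41 #2 the SF3b subunit PHF5A measured 37.2, 37.04 and 37.3 CPM against 59.8, 58.4 and 61.5 CPM in the controls, a fall of −0.69 (SE 0.0674, adjusted p = 5.36e-06), and the peptidyl-prolyl isomerase PPIL1 fell as well (−0.59, SE 0.0737, adjusted p = 5.18e-05). The helicase AQR (0.33, SE 0.0681, adjusted p = 0.00273) and the minor spliceosome protein ZCRB1 (0.32, SE 0.0745, adjusted p = 0.00552) rose. Among the 13 snRNP assembly genes, 5 rose and 2 fell with shDDX41 #1, where 23.7% and 24.1% of all genes did. With shDDX41 #2, 0 rose and 3 fell, beside 11.6% and 13.4% of all genes. Between the hairpins 9 were higher and 2 lower, where 24.6% and 24.2% of all genes were. SMN1, called higher with shDDX41 #1, measured 17.9, 39.99 and 18.6 CPM there, with library B far above A and D. The reads of SMN1 and SMN2 in this list, near-identical copies, may be split between them.

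Reads of overlapping genes limit some of these values. Of the 58 members, 20 overlap a gene on the opposite strand, PRPF39, U2AF2, SNRNP25, PRPF4, SF3B2, SNRPA, LSM3, U2SURP, EFTUD2, PRPF31, LSM7 and PRPF8 among them, and 6 overlap a gene on the same strand. The labels name a stranded kit and the study's methods an unstranded one, so reads of such partners may be mixed. For 24 members, none of the 75-base stretches occurs in another gene, SYF2, CWC22, SLU7, CDC40, SNRNP70, PLRG1 and SF3B5 among them. Of the members named above for an overlap on the opposite strand, PRPF39, U2AF2, SF3B2 and LSM7 are also among these 24. In 9 members over 10% of the stretches do.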

How the data were processed

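RNA-sequencing was performed by the authors on sorted MOLM13 cells, with 3 libraries for each of 3 hairpins, and reads of 75 bases. Per the submitters' processing notes the tools were FastQC 0.11.7, HISAT2 2.0.5 and featureCounts 1.5.2, and the builds named, without a role, were hg38 and mm10. The annotation, the strand setting and the handling of reads that fit several genes are not given in the sources used here. The deposited table held raw read counts of each gene for the 9 libraries, and 0 columns were left unmapped.

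Groups were taken from the labels. The analysis used edgeR 4.0.16 under R 4.3.3. Genes passed filterByExpr with a minimum count of 10, which kept 12712 of 30017 rows (42.4%). Libraries were scaled by TMM (factors 0.963 to 1.02), and all 9 libraries entered 1 quasi-likelihood fit, with a coefficient for each group. Tests were two-sided, adjusted by the Benjamini-Hochberg method over all genes of a contrast. The biological coefficient of variation was 0.0768. For 3 against 3 libraries an exact permutation test cannot give a p under 0.1. The SE is the log2 fold change divided by the square root of F. The scripts were tested on simulated data.

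Positions, lengths and 75-base stretches came from GENCODE 29 (GRCh38), and promoters from RefSeq. The members were picked by gene family and not by a measured value, but they, the lists and the tests were chosen with earlier results of these data known. Per-library values were given for the 6 called members with the smallest adjusted p per direction and contrast, and for 9 members whatever their result (SF3B1, U2AF1, PRPF8, SNRNP200, EFTUD2, PRPF19, CDC5L, SNRPD3 and LSM7). Of further spliceosome genes, the 2 with the smallest adjusted p per direction against sh-Control were named. Alternatives were other scalings, other filters, the DESeq2 1.42.0 Wald test, fits on 6 libraries, a replicate block and each library left out. Same-letter libraries deviated together only between sh-Control and shDDX41 #1, for B (correlation 0.16) and D (0.24). For A the correlation was 0.073, beside 0.066 for sh-Control B with shDDX41 #1 A. The letters were not used as pairs in the main fit.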

Additional observations from a re-analysis of the deposited data

How the results depend on the processing

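The changes of SYF2, PRPF3, CWC22, PRPF6, ISY1, LSM6, SLU7, CDC40, SNRNP70, PLRG1, SF3B2 and U2AF2 with shDDX41 #1 were called under every alternative run, and so were those of SYF2, SLU7, PRPF39, SNRPA1 and SNRNP25 with shDDX41 #2. The number of members that fell with shDDX41 #1 depended most on the setting. It was 9 as reported, 4 with upper quartile scaling, 5 with only the 6 libraries compared and 14 with the replicate letter as a block. With only the A and B libraries (an alternative chosen after seeing the data) it was 17. With 1 library left out it was 6 to 16, the highest without shDDX41 #1 D. Of all genes tested, 3068 fell as reported and 2453 with upper quartile scaling. Shares of all genes are not given for the block or for fewer libraries, so those counts describe the members alone. The members that rose with shDDX41 #2 numbered 2 to 6 with 1 library left out, at 2 without sh-Control B or D or any shDDX41 #2 library, and those that fell numbered 3 to 7, at 3 without shDDX41 #2 B. Between the hairpins, 7 to 15 members were higher and 6 to 14 lower with 1 library left out, and 17 were lower in the A and B libraries. Upper quartile scaling moved the median of all genes by 0.08 with shDDX41 #1, and the share of rises among all calls from 49.5% to 61.1%. Under it the members' median was 0.0395 with shDDX41 #1, −0.0038 with shDDX41 #2 and 0.0271 between the hairpins. In the A and B libraries the last 2 of these were 0.0031 and −0.0567, and with 1 library left out the median between the hairpins ran from −0.0527 to 0.0418.

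None of the named differences whose sign turned was called as reported. Upper quartile scaling gave 0.0649 for SF3B1, 0.0064 for PRPF19 and 0.0479 for PHF5A with shDDX41 #1, 0.0202 for PLRG1, 0.0335 for U2SURP and 0.0013 for STRAP with shDDX41 #2, and 0.025 for SLU7 between the hairpins. Library sizes alone gave −0.0011 for SNRNP200 and −0.0074 for PRPF19 with shDDX41 #2. The A and B libraries gave 0.0208 for SF3B1, −0.0249 for U2AF1 and −0.1251 for LSM7 with shDDX41 #1, −0.0264 for SNRNP200, 0.0168 for PLRG1, 0.0068 for U2SURP, 0.0037 for STRAP and 0.055 for MAGOH with shDDX41 #2, and −0.0103 for LSM7 between the hairpins. U2SURP with shDDX41 #2, reported as −0.0009, was 0.0074 with DESeq2 size factors or the Wald test, 0.0073 with no filter, 0.0046 with at least 10 counts in every library, 0.0071 with 6 libraries and 5e-04 with the block.

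With 1 library left out, the values with shDDX41 #1 ran from −0.0596 to 0.0353 for SF3B1, −1.9092 to 2.1506 for U2AF1, −0.3312 to 0.011 for PRPF8, −0.1611 to 0.1276 for LSM7, −0.0663 to 0.0154 for PHF5A and −0.0037 to 0.1045 for PPIL1. With shDDX41 #2 they ran from −0.0465 to 0.0679 for SNRNP200, −0.0008 to 0.0288 for PRPF19, −0.0036 to 0.0641 for CDC5L, −0.0295 to 0.0037 for PLRG1, −0.0525 to 0.051 for U2SURP and −0.1256 to 0.0405 for MAGOH, and between the hairpins from −0.0503 to 0.0071 for SLU7. Between sh-Control and shDDX41 #1, same-letter libraries had the highest correlations of deviations, at 0.073 for A, 0.16 for B and 0.24 for D. The value for A was hardly above that of sh-Control B with shDDX41 #1 A (0.066). Same-letter correlations with shDDX41 #2 libraries were −0.06 to 0.02. The labels do not state a pairing, and the main fit used none. With the letter as a block no member lost a call, and the falls with shDDX41 #1 went from 9 to 14. The share of all genes called with the block is not given. The causes of these dependences were not tested. U2AF1, at 13 to 28 counts in 7 libraries, had far fewer counts than the other members, which had at least 371 counts in each library. The cause of its low counts was not tested.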
